A study of Mus musculus with 4 samples.

Results

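The genes described here are 10 genes of the fibroblast growth factor (FGF) pathway in day 3 embryoid bodies (EBs), and they comprise 4 secreted ligands (*Fgf3*, *Fgf4*, *Fgf15* and *Fgf17*), 2 receptors (*Fgfr1* and *Fgfr2*) and 4 genes that respond to or restrain ERK signaling (*Spry2*, *Spry4*, *Dusp6* and *Etv4*). They were chosen by gene symbol as FGF ligands and receptors of the epiblast and primitive streak and as ERK feedback genes, and each symbol was listed once among the 24347 gene rows, giving 10 of 24347. The study asked what the loss of *Gm11549*, which encodes the micropeptide NEMEP, does to mouse embryonic stem cells (mESCs) as they differentiate into mesendoderm. RNA-seq was compared between EBs from WT mESCs and EBs from mESCs in which CRISPR/Cas9 had removed the *Gm11549* promoter (promoter KO), with 2 samples of each genotype. All 4 samples were of strain 129/Ola, were grown with 15% serum, were moved to plates without gelatin and without LIF to form EBs, and were collected on day 3 with no other treatment. The promoter KO lines were grown from single sorted cells, and the sources used here do not say whether the 2 promoter KO samples came from separate clones, so the p-values measure the spread between these samples only.

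FGF ligands bind receptor tyrosine kinases together with heparan sulphate chains on the cell surface, and the bound receptor activates RAS, RAF, MEK and ERK. Active ERK induces ETS-family transcription factors such as *Etv4* and also induces its own inhibitors, the Sprouty adaptors and the phosphatase DUSP6, so that their RNA is widely used as a readout of the pathway. In the early mouse embryo FGF4 drives exit from naive pluripotency, and FGF8 and the receptor FGFR1 are required for cells to leave the primitive streak as mesoderm.

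Expression is given in FPKM, an estimate of fragments corrected for transcript length and sequencing depth, so that levels of different genes can be compared. From the lowest values the depth was estimated at 24700000 (WT 1), 21900000 (WT 2), 21500000 (promoter KO 1) and 20100000 (promoter KO 2) fragments. *Gm11549*, the targeted gene, read 0.750 FPKM (WT 1), 0.522 (WT 2), 0 (promoter KO 1) and 0.0659 (promoter KO 2). Both promoter KO samples were below both WT samples, as their labels require. It lies on chromosome 3, and none of the 10 genes is on that chromosome. Pluripotency and streak markers were both present in these EBs, with *Pou5f1* above 1188 FPKM in every sample and *T* between 50.5 and 448 FPKM.

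All 10 genes reached 1 FPKM in every sample and were among the 11941 genes tested, which are those with 1 FPKM or more in 2 or more samples. At an adjusted p under 0.05 (limma with Benjamini-Hochberg adjustment), 1 of the 10 genes, *Fgf17*, was lower in promoter KO, against 1.89% of all tested genes, and 0 of the 10 were higher, against 1.68%. At an unadjusted p under 0.05, 2 of the 10 were lower (*Fgf3* and *Fgf17*), against 15.6% of all tested genes. Another 2 were higher (*Fgf4* and *Spry4*), against 15%, so the unadjusted shares are near the background. In 7 of the 10 both promoter KO samples lay on one side of both WT samples, and 65.3% of all tested genes were separated in this way, so the share among the 10 is near the background. The median log2 fold change of the 10 genes was 0.11, beside 0.00 for all tested genes, and the values ran from −1.94 to 1.48. The differences were therefore spread over both directions, with the ligands at both ends and the receptors and most feedback genes near 0.

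**Figure D1:**
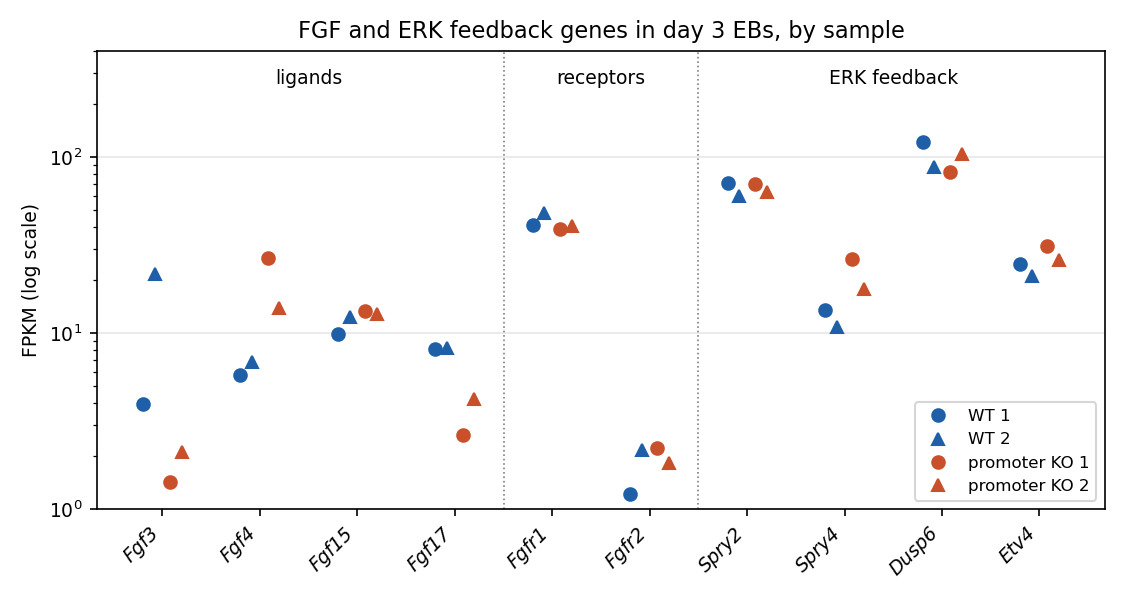
FPKM (log axis) of the 10 genes in each sample, with circles for samples numbered 1 and triangles for samples numbered 2, blue for WT and red for promoter KO. The samples of a genotype are far apart for *Fgf3* in WT (3.95 and 21.6 FPKM), and the genotypes are separated for *Fgf4*, *Fgf17* and *Spry4* but not for *Fgfr2*, *Spry2* or *Dusp6*.

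**Figure D2:**
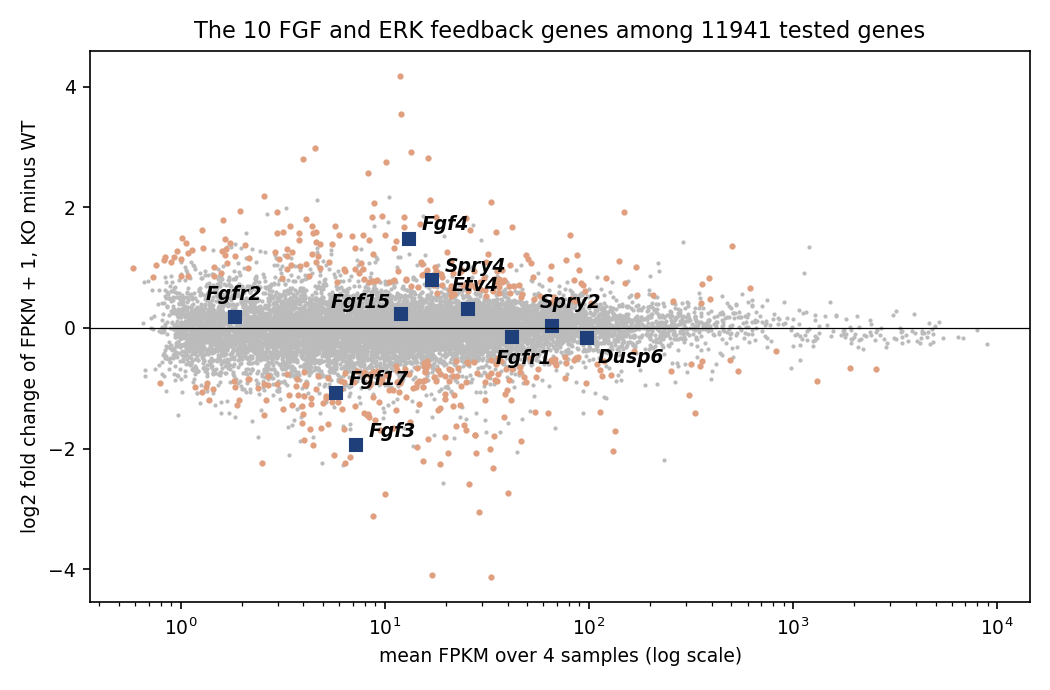
Log2 fold change of FPKM + 1 (promoter KO minus WT) against mean FPKM over the 4 samples (log axis) for all 11941 tested genes in grey, with genes at an adjusted p under 0.05 in orange and the 10 genes as blue squares. *Fgf3* (−1.94) and *Fgf4* (1.48) are the lowest and the highest of the 10 and lie within the range of the other tested genes, and the 4 genes with the highest means, *Dusp6*, *Spry2*, *Fgfr1* and *Etv4*, lie between −0.16 and 0.31.

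Among the ligands, *Fgf17* fell in promoter KO EBs, *Fgf3* was below and *Fgf4* above its WT values without passing the adjusted test, and *Fgf15* was close to its WT values. *Fgf17*, a ligand closely related to *Fgf8*, read 8.06 FPKM (WT 1), 8.25 (WT 2), 2.63 (promoter KO 1) and 4.20 (promoter KO 2). WT samples were nearly equal, and both promoter KO samples were below them, with promoter KO 1 the lowest. The WT mean was 8.15 ± 0.134 FPKM and the promoter KO mean 3.41 ± 1.11 FPKM (SD, 2 samples each), which gives −1.08 as the log2 fold change on the log2(FPKM + 1) scale (95% confidence interval −1.56 to −0.60, adjusted p = 0.0488, limma with Benjamini-Hochberg adjustment). In bulk RNA a smaller number of cells of one type and less RNA per cell cannot be told apart, here or in the values that follow. The call of *Fgf17* was close to the threshold and was lost under 9 of 11 other settings, with adjusted p from 0.0270 to 0.231 over all 11 (limma). The log2 fold change of *Fgf17* stayed between −1.33 and −0.82 in all 11. With 1 sample left out the call was lost in 3 fits (without WT 1, WT 2 or promoter KO 1) and kept without promoter KO 2. These fits leave 1 sample in a genotype, and their calls over all tested genes are given in the closing sections.

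The tested genes most like *Fgf17*, by the Euclidean distance between log2(FPKM + 1) values centred on their mean over the 4 samples, included *Smtnl2* (distance 0.04) and *Bmp2* (0.06). *Bmp2*, which encodes a bone morphogenetic protein, was at 3.72 and 3.75 FPKM in the WT pair against 0.924 and 1.81 in the promoter KO pair. As in *Fgf17*, the WT samples agreed closely and promoter KO 1 was the lowest sample. With 4 samples, many genes can share such a pattern.

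*Fgf3* and *Fgf4* are neighbours. In RefSeq (GRCm38.p6) *Fgf3* spans chr7:144838612-144843348, *Fgf4* chr7:144861386-144865245 and *Fgf15* chr7:144896532-144900953, all on the plus strand, with 18.0 kilobases between *Fgf3* and *Fgf4* and 31.3 kilobases between *Fgf4* and *Fgf15*. *Fgf3*, a ligand of the posterior streak and later of the inner ear, read 3.95 FPKM (WT 1), 21.6 (WT 2), 1.43 (promoter KO 1) and 2.12 (promoter KO 2). Both promoter KO samples were the lowest, but WT 2 stood far above WT 1, which was nearer to the promoter KO samples. On the log2 scale the difference was −1.94 with a confidence interval from −3.55 to −0.34, and it did not pass the adjusted test (adjusted p = 0.118, limma with Benjamini-Hochberg adjustment). WT 2 decided its size. Without WT 2 the log2 fold change was −0.85 (limma, adjusted p = 0.247), and without WT 1 it was −3.04 (adjusted p = 0.0253), so *Fgf3* passed when only WT 2 represented the WT.

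*Fgf4*, a ligand that mESCs and the epiblast produce, read 5.73 FPKM (WT 1), 6.82 (WT 2), 26.5 (promoter KO 1) and 13.9 (promoter KO 2). There was no overlap between genotypes, and promoter KO 1 was above promoter KO 2. The WT mean was 6.28 ± 0.768 FPKM and the promoter KO mean 20.2 ± 8.93 FPKM (SD, 2 samples each), a ratio of 3.22. A log2 fold change of 1.48 (confidence interval 0.78 to 2.18) did not pass the threshold, with an adjusted p of 0.0514 (limma with Benjamini-Hochberg adjustment). Without promoter KO 2 it was 1.92 (adjusted p = 0.0312), and without promoter KO 1 it was 1.04 (adjusted p = 0.139), both with limma.

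*Fgf15*, the mouse counterpart of FGF19, read 9.87 FPKM (WT 1), 12.3 (WT 2), 13.3 (promoter KO 1) and 12.7 (promoter KO 2). Both promoter KO samples were above both WT samples, although WT 2 and promoter KO 2 were close. Their difference was 0.22 on the log2 scale (confidence interval −0.11 to 0.56, adjusted p = 0.307, limma with Benjamini-Hochberg adjustment), and from 0.081 to 0.37 when 1 sample was left out. In GENCODE M21 the exons of *Fgf15* overlap those of 2 antisense genes, *Gm26793* and *Gm39119*, which have no values of their own here, and whether the counting used strand is not given in the sources used here, so reads from them cannot be told apart from those of *Fgf15*.

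The 3 neighbouring ligand genes thus had log2 fold changes of −1.94, 1.48 and 0.22. The protein-coding genes within 200 kilobases of them, a window chosen after their values were seen, were *Ano1*, which was at 0.290 FPKM or less in every sample, *Oraov1* and *Ccnd1*. *Ccnd1*, which encodes cyclin D1, was at 35.4 and 36.2 FPKM in the WT pair against 47.4 and 43.7 in the promoter KO pair, with 0.34 as its log2 fold change (adjusted p = 0.0779, limma with Benjamini-Hochberg adjustment). Neither *Oraov1* nor *Ccnd1* passed the adjusted test.

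The stretches before the start sites of *Fgf3* and *Fgf4* are shown because these adjacent genes had the lowest and the highest fold change of the 10. They are the 250 bases upstream of the RefSeq start (GRCm38.p6, plus strand, 5′ to 3′), chr7:144838362-144838611 for *Fgf3* and chr7:144861136-144861385 for *Fgf4*. Both were searched on both strands for the GC box GGGCGG (in 32.7% of 32851 such promoters), the CCAAT box CCAAT (33.8%), the TATA box TATAAA (12.4%), and the core letters CCGGAAG of ETS factors (6.91%), GGTGTGA of T-box factors (3.33%), CTTTGAT of TCF/LEF factors (3.21%) and ATTTGCAT of octamer factors (1.6%). Capitals mark matches.
Fgf3: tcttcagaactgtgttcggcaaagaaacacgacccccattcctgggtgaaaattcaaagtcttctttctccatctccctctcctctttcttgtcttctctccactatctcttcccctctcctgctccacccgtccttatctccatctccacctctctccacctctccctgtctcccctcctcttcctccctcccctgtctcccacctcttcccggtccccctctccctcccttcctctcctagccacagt
Fgf4: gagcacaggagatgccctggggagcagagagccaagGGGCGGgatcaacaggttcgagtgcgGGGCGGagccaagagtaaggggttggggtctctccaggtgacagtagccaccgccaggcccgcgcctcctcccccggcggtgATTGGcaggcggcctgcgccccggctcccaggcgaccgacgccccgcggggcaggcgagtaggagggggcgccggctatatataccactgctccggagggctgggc
The *Fgf4* stretch held 2 GC boxes and 1 CCAAT box on the minus strand, with no overlap among them, and the *Fgf3* stretch held none of the 7 motifs. Only exact letters were searched. The run of alternating T and A near the end of the *Fgf4* stretch differs from TATAAA and was not counted. A TATA box with other letters was therefore not looked for. G and C made up 71.2% of the *Fgf4* stretch and 55.2% of the *Fgf3* stretch, beside a median of 52.4% over all promoters searched. Of the 10 genes, 5 had an entry in the promoter table (*Fgf3*, *Fgf4*, *Fgfr2*, *Spry2* and *Dusp6*), and in the other 3 the motifs found were 1 CCAAT box before *Dusp6* and 0 elsewhere. A match of letters is a description and not evidence of binding. In GENCODE M21 the *Fgf4* stretch also lies in an intron of a longer *Fgf4* transcript, and the last bases of the *Fgf3* stretch lie in the first exon of a transcript of *Fgf3* that starts earlier than in RefSeq.

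The place of the 4 ligands among all secreted FGF ligands was read from the summed FPKM of 18 ligand genes, of which 7 were tested. The sum was 316 FPKM (WT 1), 334 (WT 2), 165 (promoter KO 1) and 194 (promoter KO 2), so both promoter KO samples were below both WT samples. Most of it was *Fgf8* and *Fgf5*. *Fgf8*, a ligand of the primitive streak, was at 196 and 213 FPKM in the WT pair against 48.9 and 77.7 in the promoter KO pair, and it fell by 1.71 on the log2 scale (adjusted p = 0.0310, limma with Benjamini-Hochberg adjustment). With 1 sample left out the log2 fold change of *Fgf8* stayed between −2.04 and −1.38. The call was lost without WT 1, without WT 2 or without promoter KO 1, and kept without promoter KO 2. With all 4 samples it was lost without the trend (adjusted p = 0.0563, limma) and with no filter (adjusted p = 0.142, limma). *Fgf5*, an epiblast ligand, was at 88.9 and 66.3 FPKM in the WT pair against 69.2 and 81.4 in the promoter KO pair, and the genotypes overlapped.

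In genotype means the order in WT was *Fgf8*, *Fgf5*, *Fgf3*, *Fgf15*, *Fgf17*, *Fgf4* and *Fgf10*, and in promoter KO it was *Fgf5*, *Fgf8*, *Fgf4*, *Fgf15*, *Fgf17*, *Fgf3* and *Fgf10*. *Fgf3* and *Fgf4* exchanged the third and the sixth place, while *Fgf15* and *Fgf17* held the fourth and the fifth. The WT place of *Fgf3* rests on WT 2, since at 3.95 FPKM in WT 1 it was below *Fgf4*, *Fgf15* and *Fgf17* in that sample. Likewise *Fgf4* was above *Fgf15* in promoter KO 1 (26.5 and 13.3 FPKM) but close to it in promoter KO 2 (13.9 and 12.7 FPKM), and *Fgf5* and *Fgf8* were close in promoter KO 2. The share of *Fgf4* in the summed ligand FPKM was 1.82% and 2.04% for WT against 16.1% and 7.16% for promoter KO. *Fgf17* made up 2.55% and 2.47% in WT and 1.60% and 2.16% in promoter KO, a smaller shift than that of its level, because the sum was lower as well. Of the other 11 ligands none reached 1 FPKM in any sample, and the highest by mean were *Fgf18* and *Fgf22*.

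**Figure D3:**
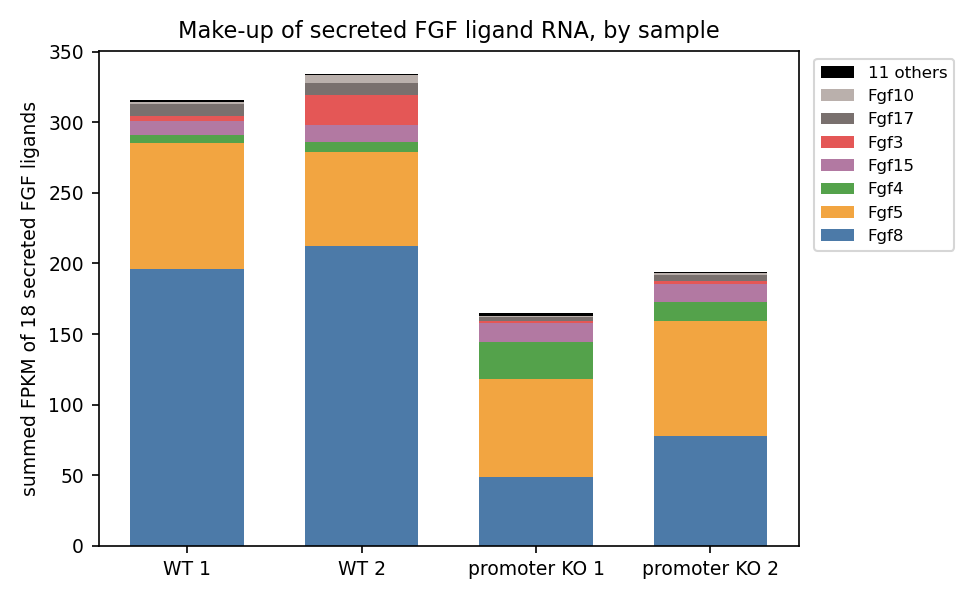
Summed FPKM of the 18 secreted FGF ligands in each sample as stacked bars from 0, with 7 ligands in colour and the other 11 together in black. The WT bars reach 316 and 334 FPKM and the promoter KO bars 165 and 194 FPKM, with a smaller *Fgf8* segment and a larger *Fgf4* segment in both promoter KO samples.

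WT 2 stood apart from the other samples in several genes besides *Fgf3*. The immediate early genes, which serum, handling and ERK activity induce within minutes, summed to 224 FPKM (WT 1), 504 (WT 2), 162 (promoter KO 1) and 189 (promoter KO 2) over 11 genes, with *Ier2* the most abundant at 83.3, 144, 73.9 and 73.3 FPKM. *Fos* read 5.03 FPKM (WT 1) and 67.3 (WT 2), and both promoter KO samples were low, at 2.61 and 2.27 FPKM. Not all of them were highest in WT 2, since *Ier3* and *Egr3* were highest in WT 1, and *Myc* and *Fosl1* were lowest in WT 2. None of the 7 tested passed an adjusted p of 0.05 (limma), and 4 had an unadjusted p under 0.05, *Myc* upward and 3 downward, against 30.6% of all tested genes in either direction. The nascent mesoderm gene *Msgn1* read 0.846 FPKM (WT 1), 22.6 (WT 2), 0.280 (promoter KO 1) and 0 (promoter KO 2). *Fgf10*, a ligand of mesoderm, was at 1.55, 5.28, 0.866 and 1.10 FPKM in the same order. The part of these differences between the WT samples in the *Fgf3* values was not tested. In *Fgf17*, by contrast, the WT samples differed by less than the promoter KO samples did.

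**Figure D4:**
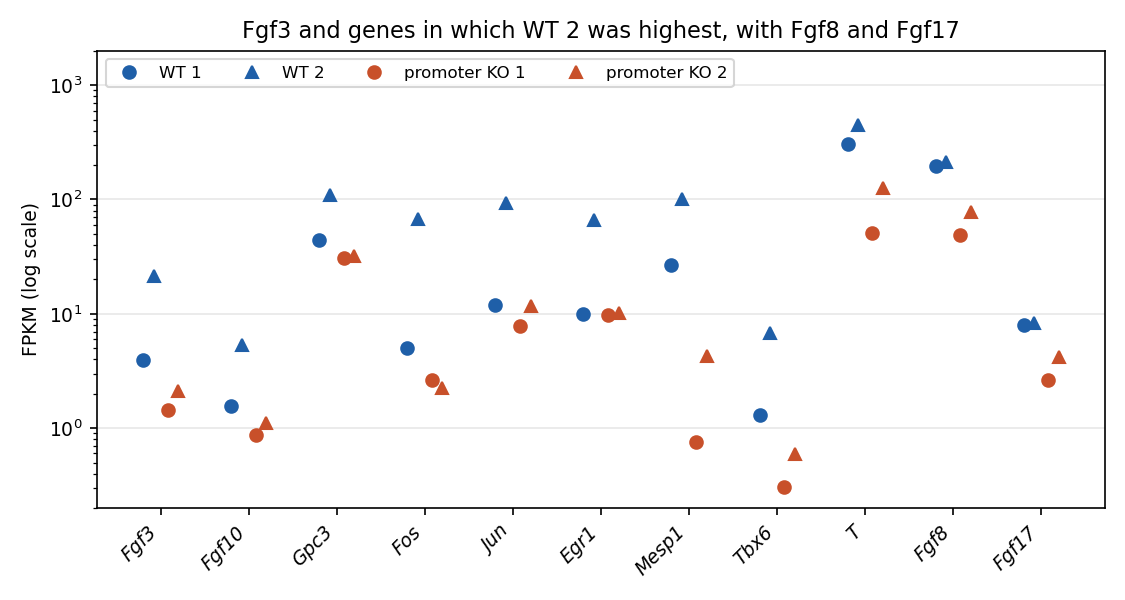
FPKM (log axis) in each sample, with markers as circles (samples 1) and triangles (samples 2), for *Fgf3* and for genes chosen after their values were seen because WT 2 was the highest sample, with *Fgf8* and *Fgf17* beside them. WT 2 is far above WT 1 for *Fgf3* (21.6 and 3.95 FPKM) and *Fos* (67.3 and 5.03 FPKM), and the WT samples nearly coincide for *Fgf17*.

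Neither receptor passed the adjusted test. *Fgfr1*, the main FGF receptor of the epiblast and streak, read 40.9 FPKM (WT 1), 48.1 (WT 2), 39.0 (promoter KO 1) and 40.6 (promoter KO 2). Both promoter KO samples were below both WT samples, but promoter KO 2 and WT 1 were nearly equal. The log2 fold change was −0.15 with a confidence interval from −0.41 to 0.11 (adjusted p = 0.366, limma with Benjamini-Hochberg adjustment), an interval that contains no decrease larger than 0.41 on the log2 scale. With 1 sample left out it ran from −0.27 to −0.038. *Fgfr2*, a receptor of epithelia and extraembryonic lineages, read 1.21 FPKM (WT 1), 2.16 (WT 2), 2.21 (promoter KO 1) and 1.82 (promoter KO 2). Here the genotypes overlapped, and the log2 fold change of 0.19 (confidence interval −0.34 to 0.71, adjusted p = 0.583 with the same test) turned to −0.073 without WT 1. These values stand for 127 to 201 fragments at the estimated depth. In GENCODE M21, 1 of 27 transcripts of *Fgfr2* shares at least 200 bases of at least 95% identity with *Ctbp2*, so a small number of fragments could have been split between them.

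*Fgfr1* made up 94.5% and 93.3% of the summed FPKM of *Fgfr1* to *Fgfr4* in WT and 88.0% and 89.4% in promoter KO. *Fgfr2* made up between 2.80% and 4.98% and *Fgfr3* between 0.941% and 1.84%, with overlap between the genotypes in *Fgfr2*. The remaining receptor, *Fgfr4*, was at 0.738 and 0.830 FPKM in the WT pair against 2.54 and 2.18 in the promoter KO pair and rose (log2 fold change 0.91, adjusted p = 0.0453, limma with Benjamini-Hochberg adjustment). *Klb*, the coreceptor with which FGF15 acts on FGFR4, was at 0.0993 and 0.0140 FPKM in the WT pair against 1.09 and 1.14 in the promoter KO pair and rose as well (log2 fold change 1.00, adjusted p = 0.0417). The sizes depend on the pseudocount, and with 0.1 in place of 1 they were 1.47 for *Fgfr4* and 3.01 for *Klb*. Both genes passed the filter only through their promoter KO samples. With 1 sample left out the log2 fold change ran from 0.83 to 0.99 for *Fgfr4* and from 0.94 to 1.06 for *Klb*. Neither passed the adjusted test in these fits, which leave 1 sample in a genotype. *Fgfrl1*, a receptor without a kinase domain, was at 9.54 and 10.2 FPKM in the WT pair against 5.13 and 6.84 in the promoter KO pair and did not pass (adjusted p = 0.0694, limma).

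Beside these 2 genes, markers of extraembryonic endoderm, a tissue that expresses *Fgfr2* and *Fgfr4*, moved in both directions. The list also holds *Sox17*, which the study counts among mesendoderm factors, so it is not specific to that tissue. Of 11 markers tested 5 were higher in promoter KO (*Amn*, *Cubn*, *Dab2*, *Sox7* and *Ttr*) and 1 was lower (*Gata6*) at an adjusted p under 0.05 (limma), beside 1.68% higher and 1.89% lower of all tested genes. *Cubn* and *Sox7* were below 1 FPKM in both WT samples and *Ttr* in WT 2, so that these 3 were tested only because of their promoter KO values. The list summed to 45.3 FPKM (WT 1), 71.5 (WT 2), 64.6 (promoter KO 1) and 84.1 (promoter KO 2), and its most abundant gene, *Gata4*, was at 5.02, 19.4, 9.68 and 13.8 FPKM, and all 11 were above 0 in every sample. The part of such cells in the *Fgfr4* and *Klb* values was not tested.

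The 4 ERK feedback genes included the 2 most abundant of the 10 genes and none that passed the adjusted test. *Spry4*, a Sprouty inhibitor of the pathway upstream of ERK, read 13.5 FPKM (WT 1), 10.9 (WT 2), 26.3 (promoter KO 1) and 17.9 (promoter KO 2). There was no overlap between genotypes, and promoter KO 1 was again the highest sample, as in *Fgf4*. The log2 fold change was 0.79 (confidence interval 0.30 to 1.28, adjusted p = 0.0730, limma with Benjamini-Hochberg adjustment), and it was 1.06 without promoter KO 2 (adjusted p = 0.0499) and 0.53 without promoter KO 1 (adjusted p = 0.266).

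*Spry2*, the more abundant Sprouty gene, read 71.0 FPKM (WT 1), 59.8 (WT 2), 70.1 (promoter KO 1) and 63.0 (promoter KO 2). Both promoter KO samples lay between the WT samples. The log2 fold change was 0.03 with a confidence interval from −0.25 to 0.31 (adjusted p = 0.888, limma with Benjamini-Hochberg adjustment). The sign turned under quantile normalization (−0.012), without WT 2 (−0.094) and without promoter KO 1 (−0.048). *Dusp6*, the ERK-specific phosphatase, read 121 FPKM (WT 1), 87.2 (WT 2), 81.8 (promoter KO 1) and 103 (promoter KO 2). Here the genotypes overlapped, with promoter KO 2 between the WT samples. Its log2 fold change was −0.16 (confidence interval −0.60 to 0.29, adjusted p = 0.581, limma with Benjamini-Hochberg adjustment) and turned to 0.076 without WT 1 and to 0.0077 without promoter KO 1.

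*Etv4*, an ETS transcription factor that ERK induces, read 24.6 FPKM (WT 1), 21.1 (WT 2), 31.1 (promoter KO 1) and 25.9 (promoter KO 2). Both promoter KO samples were above the WT samples, although promoter KO 2 and WT 1 were close. Its log2 fold change was 0.31 (confidence interval −0.01 to 0.63, adjusted p = 0.178, limma with Benjamini-Hochberg adjustment), and it ran from 0.18 to 0.43 with 1 sample left out. Its relative *Etv5* was at 125 and 117 FPKM in the WT pair against 176 and 142 in the promoter KO pair, and it did not pass either (adjusted p = 0.0999). In *Fgf4*, *Spry4* and *Etv4* alike promoter KO 1 was the highest sample and promoter KO 2 the next.

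The sum of the markers of naive pluripotency was also highest in promoter KO 1. The 8 markers summed to 50.3 FPKM (WT 1), 107 (WT 2), 210 (promoter KO 1) and 118 (promoter KO 2), with *Klf2*, the most abundant, at 23.8, 54.2, 78.0 and 51.5 FPKM, while *Klf4*, *Tbx3* and *Prdm14* were highest in WT 2. None of the 7 tested passed an adjusted p of 0.05 (limma). At an unadjusted p under 0.05, 4 were higher and 0 lower, beside 15% higher and 15.6% lower of all tested genes. The 9 streak and nascent mesoderm markers ran the other way, with sums of 703 FPKM (WT 1), 993 (WT 2), 128.5 (promoter KO 1) and 278 (promoter KO 2). Of 8 tested 5 fell (*Mixl1*, *Mesp1*, *Gsc*, *Evx1* and *Lhx1*), beside 1.89% of all tested genes, and the most abundant gene of the list, *T*, was at 306, 448, 50.5 and 127 FPKM and did not pass (adjusted p = 0.0509, limma). *Mesp1* was below 1 FPKM in promoter KO 1, so that it was tested only because of its WT values. *Fgf17* and *Fgf8*, like the sum of these markers, were lowest in promoter KO 1, and the part of a smaller streak-like share of cells or of a larger naive share in the *Fgf17*, *Fgf4* and *Spry4* values was not tested. In the epiblast list 3 of 7 markers rose (1.68% of all tested genes) and 0 fell, with sums of 2242, 1744, 2339 and 2388 FPKM in the same order and *Pou5f1* the most abundant. Neuroectoderm markers other than *Nes* (21.6, 24.5, 6.94 and 14.7 FPKM) were below 1 FPKM in every sample, and the list, of which *Nes* made up most, summed to 22.2, 24.9, 9.28 and 16.6 FPKM. The other 5 markers lay the other way, each higher in both promoter KO samples than in both WT samples, such as *Zic1* at 0.319, 0.144, 0.814 and 0.626 FPKM. Of 6 trophoblast markers tested 1 was lower (*Tfap2c*; 1.89% of all tested genes) and 0 were higher, with sums of 92.9, 193, 61.8 and 83.9 FPKM and *Krt8* the most abundant at 68.5, 132, 46.5 and 65.7 FPKM, and the defining marker *Elf5* was at 0.0473 FPKM or less in every sample.

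The rest of the pathway was read from 6 lists that hold 96 genes, the 10 genes among them, of which 77 were tested. Of the 77 genes 4 were lower (*Fgf8*, *Fgf17*, *Dusp5* and *Ext1*) and 2 were higher (*Fgfr4* and *Klb*) in promoter KO at an adjusted p under 0.05 (limma), with a median log2 fold change of 0.00. Among all tested genes 1.89% were lower and 1.68% higher, which is the background for each list below. Of the 7 tested ligands 2 fell and 0 rose, with a median of −1.02, and of 5 tested receptors and coreceptors 0 fell and 2 rose, with a median of 0.19, and the 2 are those that passed the filter only through promoter KO. Of 15 tested feedback and ETS genes 1 fell and 0 rose, with a median of 0.11. That gene was *Dusp5*, a nuclear phosphatase of ERK, at 14.4 and 17.5 FPKM in the WT pair against 7.68 and 8.24 in the promoter KO pair (log2 fold change −0.91, adjusted p = 0.0389, limma with Benjamini-Hochberg adjustment). Whether it differed from *Dusp6*, *Spry2* and *Spry4* in its change was not tested. The other 3 feedback genes of highest mean, *Etv5*, *Dusp9* and *Dusp4*, did not pass. In GENCODE M21 *Dusp5* has an antisense partner and *Etv5* a near-identical copy (*Gm4798*), so their values are uncertain to that extent.

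Downstream of the receptors, 0 of 26 tested RAS-ERK transducers passed an adjusted p of 0.05 (limma), 6 had an unadjusted p under 0.05 (30.6% of all tested genes did), and the median was 0.00. *Mapk3*, which encodes ERK1, was at 145 and 136 FPKM in the WT pair against 104 and 113 in the promoter KO pair (adjusted p = 0.0646, limma). The genotypes did not overlap, and *Map2k1*, which encodes a kinase upstream of it, was at −0.41 on the log2 scale (adjusted p = 0.0673, limma). Of 22 tested genes of heparan sulphate and FGF-binding partners 1 fell, near the 1.89% of all tested genes, and 0 rose, with a median of −0.03. It was *Ext1*, an enzyme that builds heparan sulphate chains, at 30.9 and 29.9 FPKM in the WT pair against 19.6 and 21.0 in the promoter KO pair (log2 fold change −0.56, adjusted p = 0.0460, limma with Benjamini-Hochberg adjustment). With 1 sample left out the log2 fold change ran from −1.05 to −0.78 for *Dusp5* and from −0.61 to −0.51 for *Ext1*. Neither gene passed in these fits, which leave 1 sample in a genotype. With all 4 samples both calls were lost without the trend (limma, adjusted p = 0.0624 for *Dusp5* and 0.0677 for *Ext1*). Both were also lost with no filter (0.143 and 0.142, limma). Median centring lost the call of *Ext1* (adjusted p = 0.0530, limma) but not that of *Dusp5*. The most abundant genes of that list, *Gpc3*, *Sulf2* and *Gpc1*, did not pass, and neither did the intracellular FGF homologous factors *Fgf11* and *Fgf13*, the 2 tested of 4.

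**Figure D5:**
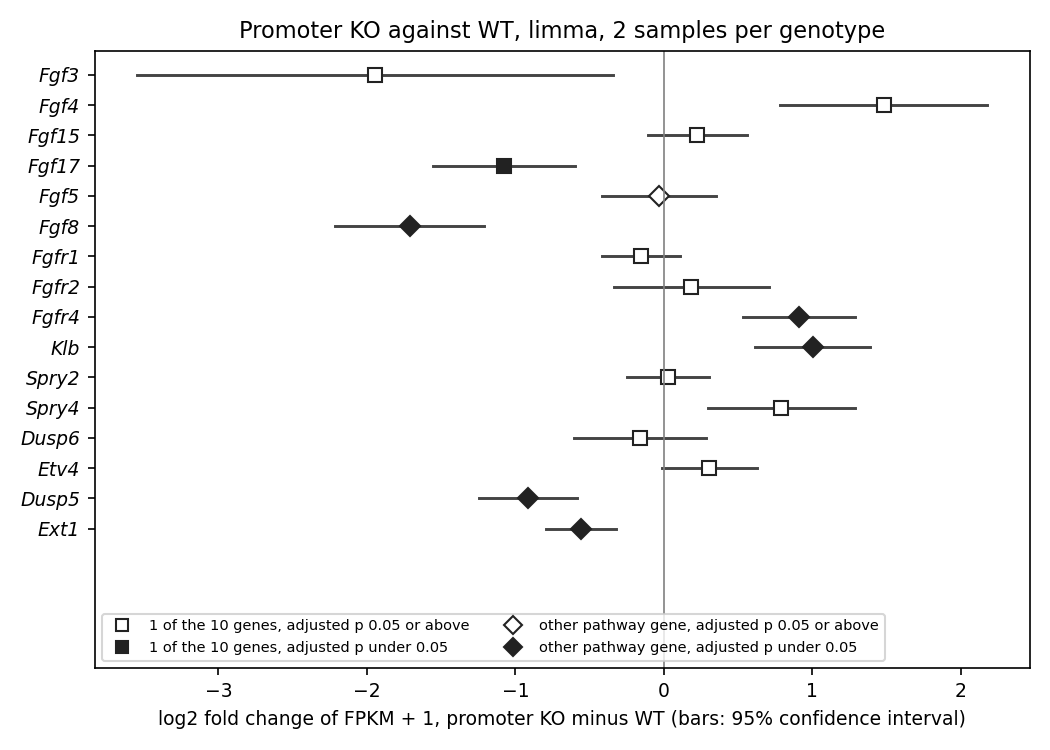
Log2 fold change of FPKM + 1 (promoter KO minus WT) with its 95% confidence interval from limma for the 10 genes (squares) and 6 other genes of the pathway (diamonds), filled where the adjusted p is under 0.05. The intervals of *Fgf17* (−1.56 to −0.60) and *Fgf3* (−3.55 to −0.34) lie below 0 and those of *Fgf4* and *Spry4* above it, while those of *Fgf15*, *Fgfr1*, *Fgfr2*, *Spry2*, *Dusp6* and *Etv4* include 0.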

How the data were processed

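The values are those the authors deposited, 1 file per sample, in FPKM, with replicates kept apart. The submitters' processing notes name HISAT2 2.1.0, Cufflinks, Cuffnorm and mm10, whereas the study's methods name TopHat and Cufflinks with GENCODE and call the unit RPKM; which made these files is not settled. Such values are already scaled for depth and length, and a normalization across samples can hide a global shift. Groups were taken from the sample labels.

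Genes at 1 FPKM or more in 2 or more samples (11941) were tested on log2(FPKM + 1), which understates the change of low genes, by limma (version 3.58.1, R 4.3.3) with a trended eBayes step of 3.99 prior degrees of freedom and Benjamini-Hochberg adjustment over all tested genes. An exact permutation test of 2 against 2 samples cannot go below a two-sided p of 0.333. The script was tested on simulated data. Depth was estimated from the value of 1 fragment in 4344 genes with a single transcript, at an assumed fragment length of 200 bases. Near-identical copies were searched with BLAST 2.17.0 and positions taken from RefSeq, in which *Gm11549* was matched as a synonym. Tables and figures used Python 3.11.15, numpy 2.4.6, pandas 2.3.3 and matplotlib 3.10.9.

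The genes and lists were chosen with earlier results of these data known. Named genes are the 10 genes, *Gm11549*, *Fgf5*, *Fgf8*, pathway and immediate early genes with an adjusted p under 0.05 and no overlap between genotypes, the 3 other genes of highest mean in each pathway list, and the 3 genes closest to each gene called. Some genes that this rule takes are not reported here. Other genes were named after their values were seen. Alternatives were a mean of 5 FPKM as the filter, all genes with any value above 0, a pseudocount of 0.1, no trend, median centring, quantile normalization, the replicate number as a block, each sample left out, and the log2 ratio of mean FPKM.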

Additional observations from a re-analysis of the deposited data

How the results depend on the processing

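With 2 samples per genotype the calls moved with the settings, while directions mostly held. Over 11 settings (10 for *Fgfr2*, which a mean of 5 FPKM removed) the log2 fold changes of *Fgf3*, *Fgf4*, *Fgf15*, *Fgf17*, *Fgfr1*, *Spry4* and *Etv4* kept their sign. *Spry2* turned to −0.012 under quantile normalization. Leaving out 1 sample gave from −0.073 to 0.44 for *Fgfr2* (negative without WT 1), from −0.094 to 0.15 for *Spry2* (negative without WT 2 or promoter KO 1) and from −0.39 to 0.076 for *Dusp6* (positive without WT 1 or promoter KO 1); the cause was not tested. The ratio of mean FPKM without a pseudocount kept all 10 signs.

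Over all tested genes, 226 were lower and 201 higher. With no filter 0 and 0 were called (4059 of 18215 at an unadjusted p under 0.05, limma), at a mean of 5 FPKM 108 and 95, and without the trend 27 and 55. Median centring gave 126 lower and 157 higher. Leaving out 1 sample gave from 0 to 248 lower and from 0 to 238 higher; without WT replicate 2 and without promoter KO replicate 1 limma called 0 genes, with 1875 and 2009 at an unadjusted p under 0.05. The lone sample is then assumed to vary like the other genotype, and fewer samples remain.

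Of the 10 genes, 1 was lower and 0 higher. The lower count was 0 with a pseudocount of 0.1, no filter, a mean of 5 FPKM, no trend, median centring or quantile normalization, and leaving out 1 sample gave from 0 to 1 lower and from 0 to 2 higher. Of the pathway genes 4 were lower and 2 higher. These became 0 and 0 with no filter and 0 and 1 without the trend, 2 were lower under median centring, 0 were higher at a mean of 5 FPKM (which removes *Fgfr4* and *Klb*) and 1 under quantile normalization, and leaving out 1 sample gave from 0 to 3 lower and from 0 to 3 higher.

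The labels do not say whether replicate numbers pair WT with promoter KO samples. After subtracting each genotype's mean, samples that share a number had a correlation of 0.0348 across genes. With the number as a block, 667 genes were lower and 535 higher, 2 of the 10 genes were lower (*Fgf3*, *Fgf17*) and 2 higher (*Fgf4*, *Spry4*), and 8 pathway genes were lower and 6 higher. Depth limits low genes, with *Klb* at 1.02 to 78.2 and *Gm11549* at 0 to 48.8 fragments per sample.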
